A study of Mus musculus with 11 samples.

Results

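The genes described here are broadly expressed genes of mouse chromosome 8, which serve DNA replication, transcription, protein turnover, membrane traffic and mitochondria in nearly every cell. Of 41 such genes listed by symbol, 40 had at least 1 transcript cluster (the array's unit for a gene or part of one) that the platform annotation assigns to a single symbol, and Ddx19a was not analysed here. They are 40 of the 955 chromosome 8 genes and of the 19935 genes measured. The RefSeq gene table placed all 40 on chromosome 8. The list was drawn up with results of these arrays known, and the difference between mutant and control cells was among them, so that difference is described below without a test.

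RNA of mouse embryonic stem cells (ESCs) was profiled on 11 Affymetrix whole-transcript arrays. N2B27 is a defined medium without serum, and cells kept in it lose pluripotency. After 3 days of N2B27 there were 3 arrays of Bmpr1a-/- cells and 3 of E14 control cells. In ESC medium there were 2 arrays of Bmpr1a-/- cells, numbered 2 and 3, and 3 of E14 cells. Bmpr1a codes for a receptor kinase that binds bone morphogenetic proteins. The mutant cells came from the lines C1-6, Fr124 and Fr88, but the labels do not say which line is on which array, which part of the gene was deleted, or whether these lines derive from E14. E14 is 1 line, so a difference between genotypes cannot be told apart from a difference between lines. Whether replicate arrays stem from separate cultures is not stated, so p-values here measure only how far these arrays differ, which could be technical.

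Mouse ESCs in culture often gain a copy of chromosome 8, because cells with the extra copy tend to outgrow their neighbours. Broadly expressed genes are a convenient readout of such a gain, since their RNA is made in most states of the cell and usually follows gene copy number. If RNA followed copy number exactly, 3 copies in place of 2 would raise each gene 1.5-fold, which is 0.58 on the log2 scale. Copy number was not measured in this series, and from RNA alone a gain in one line cannot be told apart from a loss in the other.

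The deposited values are log2 expression after RMA, with an own baseline subtracted from each cluster. A value near 0 is therefore close to that gene's baseline and says nothing about brightness, and only differences between arrays of the same gene are compared. The number of arrays limits the precision. In these bulk samples, fewer cells of a type and less RNA per cell cannot be told apart.

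The promoters of the members were taken from RefSeq (build GRCm38.p6), where 28 of the 40 members had an entry of 300 bases, running from 250 before to 50 after the first listed transcription start. Their median GC content was 64.0%, against 56.3% over the promoters of 17491 protein-coding genes, and the median ratio of observed to expected CpG was 0.91 against 0.58. GC-rich promoters with many CpGs are typical of genes used in all tissues. A search on both strands found the GC box GGGCGG, read by SP and KLF factors, in 18 of 28 (64.3%, against 46.3% of all), and CCAAT in 10 (35.7% against 39.0%). The E2F motif TTTNGCGC was in 3 (10.7% against 1.74%), and an NRF1 consensus in 2 (7.14% against 1.32%). The ETS motif CCGGAAGT (5.29% of all), the YY1 motif AAGATGGC (3.22%) and the E-box CACGTG (7.90%) were each in 3, and TATAAA was in 4 (14.3% against 13.3%). Matches of different motifs may overlap, and a match is a string of letters, not a shown binding site. The 4 sequences below are the members with an entry that had the 2 highest and the 2 lowest mean genotype differences, on the strand of the gene, 5′ to 3′, with the motif matches in capitals.
Orc6, chr8:85299382-85299681, plus strand: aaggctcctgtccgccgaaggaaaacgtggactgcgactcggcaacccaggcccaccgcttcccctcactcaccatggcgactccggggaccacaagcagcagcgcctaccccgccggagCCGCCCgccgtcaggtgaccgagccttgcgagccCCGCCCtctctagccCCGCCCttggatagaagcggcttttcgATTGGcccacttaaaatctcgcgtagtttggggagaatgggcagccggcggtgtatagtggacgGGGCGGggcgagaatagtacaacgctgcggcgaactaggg
Ddx49, chr8:70302422-70302721, minus strand: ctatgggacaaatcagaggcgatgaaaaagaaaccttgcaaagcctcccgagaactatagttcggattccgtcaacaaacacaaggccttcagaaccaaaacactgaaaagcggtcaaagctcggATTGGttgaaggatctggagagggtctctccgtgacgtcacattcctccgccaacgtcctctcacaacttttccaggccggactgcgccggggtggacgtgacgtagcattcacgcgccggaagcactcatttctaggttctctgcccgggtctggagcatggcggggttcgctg
Ctcf, chr8:105636288-105636587, plus strand: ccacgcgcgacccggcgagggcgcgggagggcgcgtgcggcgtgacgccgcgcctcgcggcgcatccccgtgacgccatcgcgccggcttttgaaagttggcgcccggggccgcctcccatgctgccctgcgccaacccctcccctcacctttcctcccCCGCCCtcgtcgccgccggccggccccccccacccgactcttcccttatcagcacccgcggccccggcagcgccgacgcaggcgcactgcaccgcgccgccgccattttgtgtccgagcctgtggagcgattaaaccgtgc
Prdx2, chr8:84969372-84969671, plus strand: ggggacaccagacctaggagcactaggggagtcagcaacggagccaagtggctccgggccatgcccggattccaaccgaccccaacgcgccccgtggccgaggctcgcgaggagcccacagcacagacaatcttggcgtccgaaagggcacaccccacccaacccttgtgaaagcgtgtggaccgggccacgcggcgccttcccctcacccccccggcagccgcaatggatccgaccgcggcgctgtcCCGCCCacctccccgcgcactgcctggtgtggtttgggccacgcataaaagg
The Orc6 promoter held 4 GC boxes and 1 CCAAT box, that of Ddx49 a CCAAT box only, and those of Ctcf and Prdx2 a GC box each. The Ctcf promoter had the highest GC content of these 4, at 75.3%, and that of Ddx49 the lowest, at 54.3%.

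Before the members, the arrays were checked against their labels. Bmpr1a read 0.15, -0.14 and -0.05 in the mutant arrays in N2B27 and 0.61, 0.68 and 0.76 in control, and -0.03 and 0.00 in mutant against 0.37, 0.16 and 0.25 in control in ESC medium. Every mutant array lay below every control array, although a whole-gene value is a weak check where the deleted part is not stated. The Y-linked gene Eif2s3y read -3.73 to -3.54 in the 5 mutant arrays and 0.37 to 0.72 in the 6 control arrays. Hprt, a purine salvage enzyme gene on the X chromosome, read -0.13 to 0.92 in the 5 mutant arrays and -5.22 to -4.47 in the 6 control arrays. The mean of 7 pluripotency markers was 1.37 to 1.39 in mutant and 1.05 to 1.27 in control arrays in ESC medium, and -0.59 to -0.25 in mutant and -1.32 to -0.86 in control arrays in N2B27. The mean of 7 fibroblast and feeder markers was -0.70 to -0.64 in mutant and 0.05 to 0.30 in control arrays in ESC medium, but overlapped in N2B27, at 0.01 to 0.41 in mutant and 0.05 to 0.42 in control. Of these 7, Tagln (-2.23), Acta2 (-1.88), Col1a1 (-1.32) and Col1a2 (-0.73) had a genotype difference below 0 in ESC medium. Vim (0.28), Thy1 (0.08) and Col3a1 (0.03) were above it. The mean of 5 neural progenitor markers was 0.22 to 0.37 in mutant and -0.15 to 0.09 in control arrays in N2B27, and -0.20 to -0.19 in mutant and -0.16 to 0.02 in control arrays in ESC medium. Of these 5, Nes (1.27) and Fabp7 (0.53) had a genotype difference above 0 in N2B27, and Sox1 (-0.09), Pax6 (-0.10) and Hes5 (-0.08) below it. Zfp42 of the pluripotency list and Sox1 lie on chromosome 8 themselves. The part of these markers in the values below was not tested.

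How mutant cells differ from control cells on chromosome 8 was asked in each medium. Nearly all of the 40 members lay higher in mutant cells, by amounts that differed between genes. The difference was above 0 for 40 of 40 members in N2B27, with a median of 0.43 (from 0.06 for Ctcf to 0.70 for Tfdp1), and for 39 of 40 in ESC medium, with a median of 0.39 (from -0.01 for Ikbkb to 0.62 for Gabarapl2). As ratios, the medians are 1.35 and 1.31. Of the members, 9 in N2B27 and 2 in ESC medium stood above the 0.58 of an exact copy number effect. The value of Gabarapl2 in ESC medium averages 2 clusters that differ, with 0.26 and 0.98. All 3 mutant arrays lay above all 3 control arrays for 34 members in N2B27 (11.7% of all genes), and both mutant arrays above all 3 control arrays for 35 in ESC medium (17.7% of all genes). In both media at once this held for 29 members, which is 72.5% of them, against 4.37% of all genes and 28.4% of all chromosome 8 genes.

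**Figure D1:**
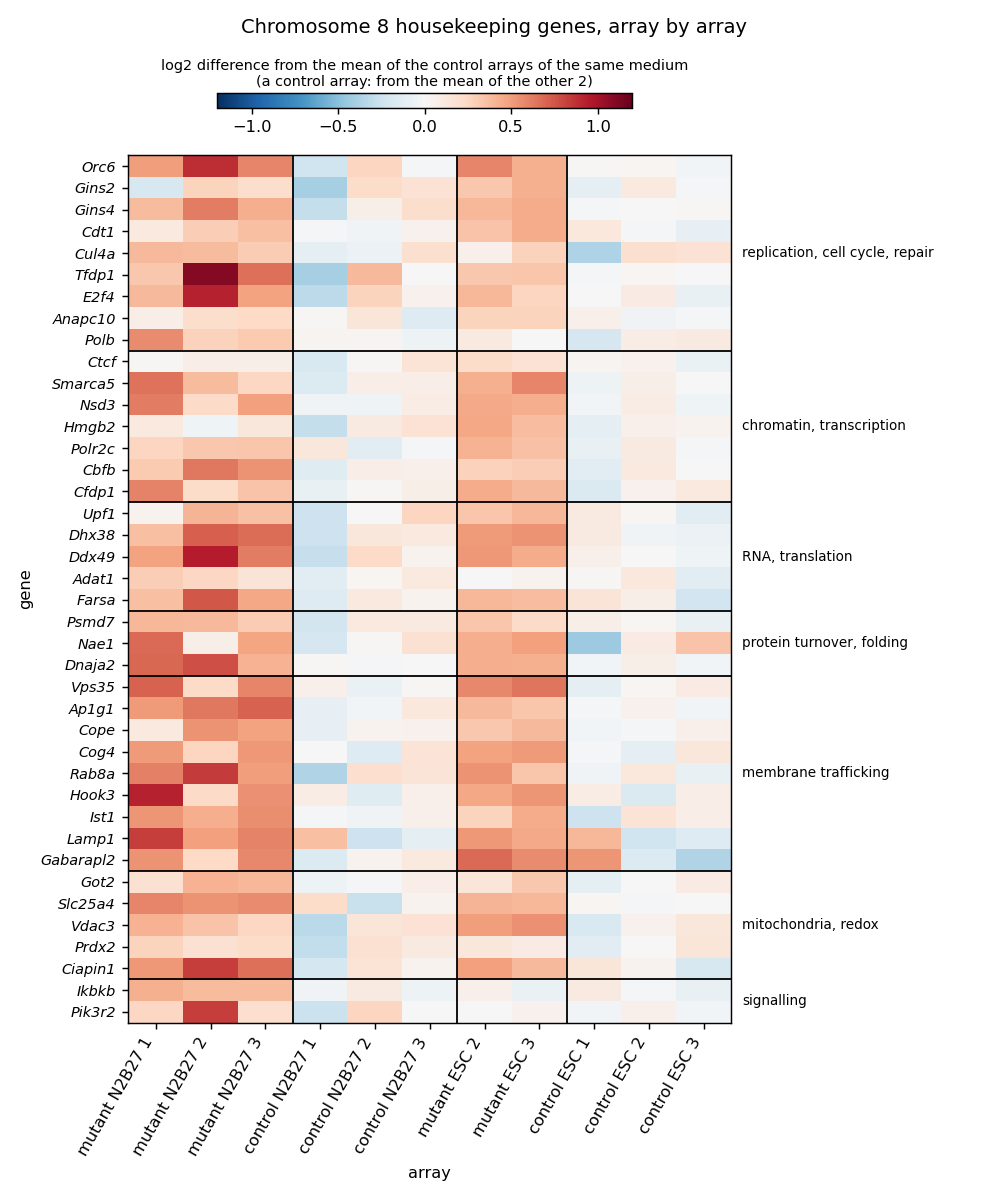
Log2 difference of each of the 40 members (rows, grouped by role) on each array (columns) from the mean of the control arrays of the same medium, with each control array set against the other 2. The 5 mutant columns are almost entirely red, with medians between 0.38 and 0.45, while the 6 control columns have medians between -0.15 and 0.07.

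Each mutant array showed the difference by itself. Against the mean of the control arrays, the members' median was 0.41, 0.38 and 0.45 in the mutant arrays 1, 2 and 3 in N2B27, and 0.40 and 0.39 in the mutant arrays 2 and 3 in ESC medium. Each control array, set against the other 2 of its medium, had a median of -0.15, 0.04 and 0.07 in N2B27 and -0.02, 0.04 and -0.02 in ESC medium. The -0.15 of control array 1 in N2B27 stands beside -0.12 for the partners described below. The medians of the mutant arrays were thus alike and all above those of the control arrays. Between 38 and 40 of the 40 members lay above the control mean on any 1 mutant array. The exceptions were Gins2 on mutant array 1 (-0.20) and Hmgb2 on mutant array 2 (-0.05) in N2B27, and Polb (-0.01) and Ikbkb (-0.08) on mutant array 3 in ESC medium. Measured against the median gene of the other autosomes on the same array, the members stood 0.47, 0.34 and 0.45 higher in N2B27 and 0.41 and 0.41 higher in ESC medium.

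Partners of the members in the same complexes and pathways, encoded on other autosomes, had median differences near 0. There were 123 of them (of 133 listed, 7 were not measured and 3 lie on chromosome 8). Their median difference was 0.02 in N2B27 and 0.00 in ESC medium, with 69 and 61 of 123 above 0. In N2B27, 9 partners were called higher (7.32%, against 4.10% of all genes) and 1 lower (0.81% against 1.64%). In ESC medium 0 were called higher (3.09% of all genes) and 3 lower (2.44% against 3.05%). By role, partners of protein turnover had a median of 0.17 in N2B27 (17 of 20 above 0) and 0.02 in ESC medium, and those of RNA and translation 0.12 (10 of 14 above 0) and 0.00. All mutant arrays lay above all control arrays in both media for 10 of them (8.13%). The highest by the mean over both media was Vps26a, which binds Vps35 in the retromer, with 0.36 (SE 0.13) in N2B27 and 0.33 (SE 0.14) in ESC medium. The lowest was Hmgb1, a relative of Hmgb2, with -0.50 (SE 0.23) and -1.05 (SE 0.25).

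The spread over the members was close to that over the partners, and the members' distribution lay higher. The SD of the difference over genes was 0.17 for members and 0.21 for partners in N2B27, and 0.16 and 0.18 in ESC medium. The typical error of a single member (root mean square SE) was 0.10 in N2B27 and 0.12 in ESC medium, so the spread between members was larger than the error of 1 gene. On single arrays the SD over members was 0.24, 0.28 and 0.17 in mutant arrays 1, 2 and 3 in N2B27 and 0.17 and 0.16 in mutant arrays 2 and 3 in ESC medium. Mutant array 2 in N2B27 was the widest, and it was the widest for the partners too (SD 0.35). Of the members, 27 in N2B27 and 31 in ESC medium had a difference between 0.2 and 0.6, and 19 of 40 did in both media.

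**Figure D2:**
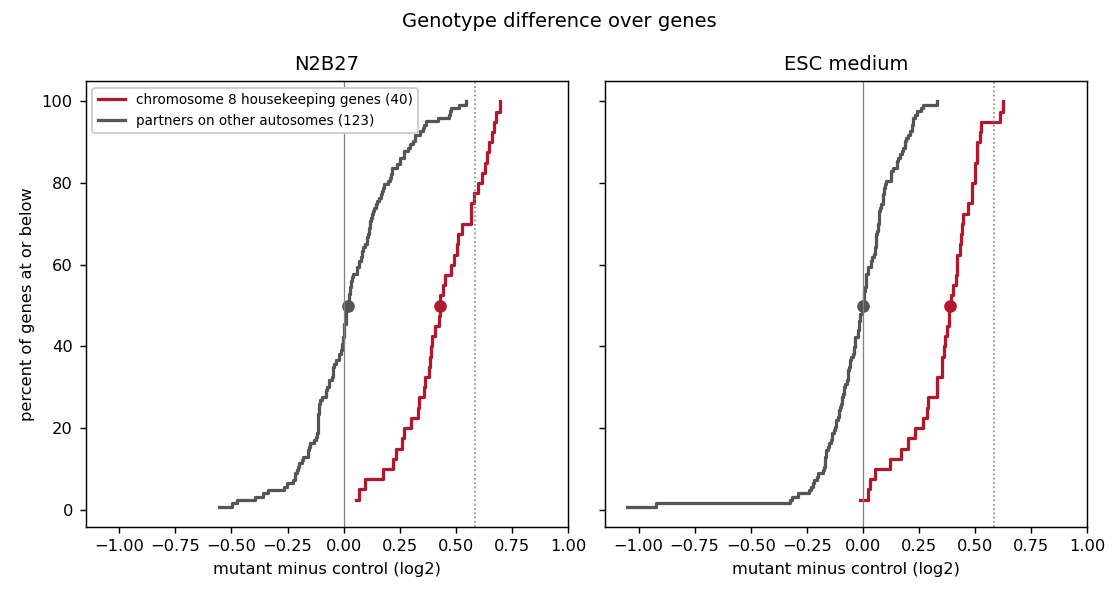
Percent of genes (vertical) at or below a given log2 difference, mutant minus control (horizontal), for the 40 members and the 123 partners on other autosomes, with dots at the medians and a dotted line at 0.58. The members' curve has nearly the same slope as that of the partners and lies to its right, with medians of 0.43 against 0.02 in N2B27 and 0.39 against 0.00 in ESC medium.

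All 9 genes that copy and repair DNA or drive the cell cycle had a difference above 0 in both media, with a median of 0.39 in N2B27 and 0.33 in ESC medium. Orc6, a subunit of the origin recognition complex, had the highest mean difference of all members. It read -0.03, 0.35 and 0.05 in mutant against -0.70, -0.37 and -0.55 in control arrays in N2B27, and 0.57 and 0.41 in mutant against -0.01, 0.00 and -0.04 in control arrays in ESC medium. The groups did not overlap in either medium, and the differences were 0.66 (SE 0.11) and 0.51 (SE 0.12). Gins4, of the GINS complex in the replicative helicase, had 0.48 (SE 0.09) and 0.42 (SE 0.10). Gins2, of the same complex, had 0.10 (SE 0.14) in N2B27, where the groups overlapped, and 0.37 (SE 0.15) in ESC medium. Cdt1, which loads the helicase at origins, had 0.26 and 0.39, and Cul4a, the scaffold of a ubiquitin ligase that marks Cdt1 for destruction, 0.36 and 0.17. Tfdp1, the dimer partner of E2F factors, read -0.29, 0.48 and 0.04 in mutant against -0.89, -0.36 and -0.62 in control arrays in N2B27, and 0.26 and 0.27 in mutant against -0.08, -0.05 and -0.07 in control arrays in ESC medium. Its groups did not overlap, with differences of 0.70 (SE 0.18) and 0.33 (SE 0.20), and its mutant arrays in N2B27 were far apart. E2f4, an E2F factor that mainly represses, had 0.60 and 0.33, Anapc10, of the anaphase-promoting complex, 0.18 and 0.27, and Polb, the polymerase of base excision repair, 0.39 and 0.05.

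Genes of chromatin and transcription also lay above 0 in both media, 7 of 7, with medians of 0.39 in N2B27 and 0.42 in ESC medium. Ctcf, the insulator protein that sets chromatin loops with cohesin, was among the 4 members with the lowest mean difference. It read 0.03, 0.10 and 0.09 in mutant against -0.10, 0.03 and 0.13 in control arrays in N2B27, where the groups overlapped, and 0.00 and -0.04 in mutant against -0.20, -0.19 and -0.27 in control arrays in ESC medium, where they did not. The differences were 0.06 (SE 0.07) and 0.20 (SE 0.07). Hmgb2, a DNA-bending protein gene, had 0.07 (SE 0.09) and 0.42 (SE 0.10), and in N2B27 mutant array 2 fell within the range of the control arrays while mutant arrays 1 and 3 lay above it. The other 5 were more even. Smarca5, an ATPase that slides nucleosomes, had 0.42 in N2B27 and 0.51 in ESC medium, and Nsd3, a histone methyltransferase, 0.44 and 0.45. Polr2c, a subunit of RNA polymerase II, had 0.30 and 0.38, Cbfb, the partner of RUNX factors, 0.49 and 0.29, and Cfdp1 0.39 and 0.42.

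Among 5 genes of RNA processing and translation the medians were 0.53 in N2B27 and 0.38 in ESC medium. Upf1, the helicase of nonsense-mediated decay, read 0.00, 0.37 and 0.31 in mutant against -0.21, -0.05 and 0.13 in control arrays in N2B27, and 0.09 and 0.15 in mutant against -0.17, -0.23 and -0.33 in control arrays in ESC medium. Mutant array 1 overlapped with control in N2B27, and the differences were 0.27 (SE 0.11) and 0.37 (SE 0.12). Ddx49, a DEAD-box helicase gene linked to ribosome production, read -0.06, 0.40 and 0.08 in mutant against -0.72, -0.38 and -0.51 in control arrays in N2B27, and 0.53 and 0.45 in mutant against 0.05, 0.00 and -0.03 in control arrays in ESC medium. All its mutant arrays lay above all its control arrays, with differences of 0.68 (SE 0.12) and 0.48 (SE 0.13). Adat1, a deaminase of tRNA, had the lowest mean difference of all members. It read 0.11, 0.06 and -0.04 in mutant against -0.28, -0.17 and -0.11 in control arrays in N2B27, and 0.00 and 0.03 in mutant against 0.00, 0.08 and -0.10 in control arrays in ESC medium. Its groups were apart in N2B27 (0.23, SE 0.07) and overlapped in ESC medium (0.02, SE 0.08). The splicing helicase gene Dhx38 had 0.58 and 0.52, and Farsa, of the phenylalanine tRNA synthetase, 0.53 and 0.38.

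The 3 genes of protein turnover and folding had medians of 0.41 in N2B27 and 0.43 in ESC medium. Psmd7, of the lid of the proteasome, read -0.10, -0.11 and -0.20 in mutant against -0.65, -0.43 and -0.43 in control arrays in N2B27, and 0.29 and 0.19 in mutant against 0.00, -0.03 and -0.11 in control arrays in ESC medium. The groups did not overlap, with differences of 0.36 (SE 0.07) and 0.28 (SE 0.08). Dnaja2, a co-chaperone gene, had 0.63 and 0.43. Nae1, of the enzyme that activates the ubiquitin-like protein NEDD8, had 0.41 (SE 0.16) and 0.47 (SE 0.18), with overlap in N2B27.

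All 9 genes of membrane trafficking had every mutant array above every control array in both media, with medians of 0.51 in N2B27 and 0.49 in ESC medium. Vps35, the core of the retromer that returns cargo from endosomes, read 0.62, 0.14 and 0.50 in mutant against -0.04, -0.14 and -0.07 in control arrays in N2B27, and 0.47 and 0.54 in mutant against -0.18, -0.09 and -0.03 in control arrays in ESC medium. Its differences were 0.51 (SE 0.11) and 0.61 (SE 0.12). Lamp1, a lysosomal membrane protein gene, read 0.62, 0.27 and 0.37 in mutant against 0.02, -0.38 and -0.29 in control arrays in N2B27, and 0.44 and 0.37 in mutant against 0.18, -0.24 and -0.18 in control arrays in ESC medium. Control array 1 stood above the other 2 control arrays in both media, and the differences were 0.64 (SE 0.14) and 0.49 (SE 0.15). Ap1g1, of a clathrin adaptor, had 0.62 and 0.36, Rab8a, a GTPase of secretion, 0.65 and 0.43, and Hook3, an adaptor of dynein, 0.57 and 0.50. Ist1, a regulator of the ESCRT membrane-cutting machinery, had 0.51 and 0.35, Cog4, of a Golgi tethering complex, 0.43 and 0.50, and Cope, of the COPI coat, 0.38 and 0.35. Gabarapl2, of the autophagy ATG8 family, had 0.45 and 0.62, but its 2 clusters differed in ESC medium (0.26 and 0.98), while they had 0.43 and 0.47 in N2B27.

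All 5 genes of mitochondria and redox balance had their groups apart in both media, with medians of 0.34 in N2B27 and 0.40 in ESC medium. Got2, the mitochondrial aspartate aminotransferase, read 0.11, 0.34 and 0.32 in mutant against -0.11, -0.08 and -0.02 in control arrays in N2B27, and -0.01 and 0.17 in mutant against -0.22, -0.14 and -0.08 in control arrays in ESC medium. The differences were 0.33 (SE 0.08) and 0.23 (SE 0.09). Prdx2, a peroxidase gene, read 0.19, 0.11 and 0.15 in mutant against -0.27, 0.05 and 0.00 in control arrays in N2B27, and -0.19 and -0.23 in mutant against -0.42, -0.33 and -0.23 in control arrays in ESC medium. Its groups stood apart by little, with differences of 0.22 (SE 0.09) and 0.12 (SE 0.10). Slc25a4, the exchanger of ADP and ATP, had 0.57 and 0.40, Vdac3, a channel of the outer membrane, 0.34 and 0.53, and Ciapin1, of iron-sulphur cluster assembly, 0.67 and 0.44.

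The 2 signalling genes had their groups apart in N2B27 and overlapping in ESC medium. Ikbkb, the kinase that frees NF-kB, read 0.34, 0.29 and 0.30 in mutant against -0.11, -0.01 and -0.13 in control arrays in N2B27, and -0.23 and -0.37 in mutant against -0.22, -0.30 and -0.35 in control arrays in ESC medium. The differences were 0.39 (SE 0.06) and -0.01 (SE 0.07). Pik3r2, a regulatory subunit of PI3-kinase, had 0.43 (SE 0.15) in N2B27 and 0.03 (SE 0.17) in ESC medium, where the groups overlapped.

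Calls for the genotype difference are given for completeness, and nothing is read from them because the members were listed with this contrast known. By limma with Benjamini-Hochberg adjustment under 0.05 over all genes, 26 members were called higher in N2B27, where 4.10% of all genes were, and 17 in ESC medium, where 3.09% were. After a second quantile normalization the split over all genes in ESC medium was 326 higher and 165 lower, against 615 and 609. None was called lower (1.64% of all genes in N2B27 and 3.05% in ESC medium), 14 were called in both media (1.03% of all genes) and 11 in neither. Without control array 1, 2 or 3 the count in N2B27 was 15, 15 and 14, where 2.54%, 2.25% and 1.8% of all genes were called higher. In ESC medium it was 3 without control array 2 (1.69% of all genes), 4 without control array 3 (1.70%) and 0 without mutant array 2 (0.873%) or 3 (1.31%), while the members' median stayed between 0.37 and 0.47 under each of these omissions.

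The 2 media used separate arrays, so each gene's difference could be set against itself. Across the 40 members the differences in N2B27 and in ESC medium had a Pearson correlation of 0.39 and a Spearman correlation of 0.44, and across the 123 partners 0.25 and 0.24. These are correlations over genes measured with the same probes, given as descriptions. The difference was larger in N2B27 for 25 members and in ESC medium for 15.

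**Figure D3:**
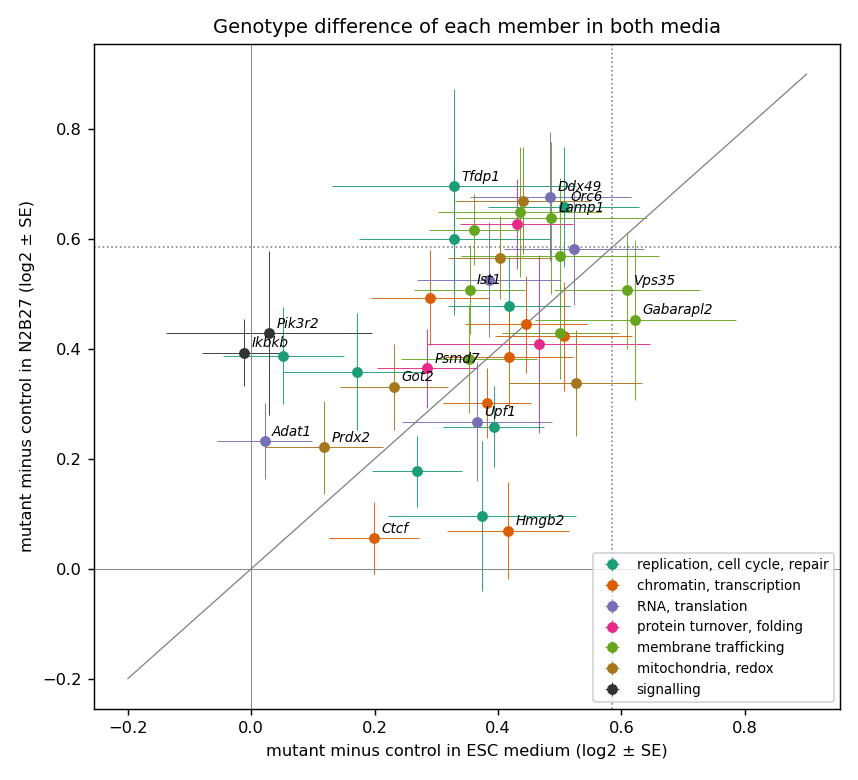
Log2 difference, mutant minus control, of each member in N2B27 (vertical) and in ESC medium (horizontal), with SE bars, coloured by role; the diagonal marks equal differences and dotted lines 0.58. Most points lie in a cloud around the medians of 0.43 and 0.39, while Ikbkb, Pik3r2 and Adat1 sit near 0 in ESC medium and Ctcf and Hmgb2 near 0 in N2B27.

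How the genotype difference changed with the medium was described gene by gene with the interaction, that is, how much larger it was in N2B27 than in ESC medium. The interaction is made from the 2 genotype differences, which were known when the members were listed. Nothing is therefore read from the count of its calls. The members' median was 0.09, and no member passed (0 of 40, limma), where 2.12% of all genes did. At an unadjusted p under 0.05 (limma), 4 of 40 passed, a smaller share than the 13.7% of all genes. They were Ikbkb (0.40, SE 0.09, adjusted p = 0.0563), Ap1g1 (0.26, SE 0.10, adjusted p = 0.256), Hmgb2 (-0.35, SE 0.13, adjusted p = 0.259) and Polb (0.34, SE 0.13, adjusted p = 0.274). With array weights, Ikbkb (0.37, adjusted p = 0.0171) and Ap1g1 (0.31, adjusted p = 0.0384) passed by limma. The weights of mutant arrays 1, 2 and 3 in N2B27 were 0.36, 0.23 and 2.93. The weighted mutant mean in N2B27 therefore rests mostly on mutant array 3. Under that setting 1246 of all 19935 genes were called higher and 536 lower. A p that misses the threshold does not show that the other members differ equally in the 2 media, since the typical SE of the interaction was 0.16.

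Position along the chromosome was described by the order of genes in the RefSeq table, with the 955 chromosome 8 genes cut into 10 runs of 95 or 96 neighbours. Members fell in all 10 runs, and every run had a members' median above 0 in both media, from 0.26 in run 10 (Cdt1 alone) to 0.64 in run 1 in N2B27 and from 0.27 in run 5 to 0.47 in run 6 in ESC medium. Over all genes of a run, the median of single mutant arrays was between -0.01 and 0.31 in N2B27 and between 0.05 and 0.21 in ESC medium. Only run 2 on mutant array 1 in N2B27 fell below 0. Over whole chromosomes, chromosome 8 had the highest median of the 19 autosomes on each of the 5 mutant arrays, with 0.11, 0.19 and 0.19 in N2B27 and 0.12 and 0.14 in ESC medium. The next highest were 0.09 and 0.05, both chromosome 11, on mutant arrays 2 and 3 in N2B27, and -0.03 to 0.00 on the other 3.

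**Figure D4:**
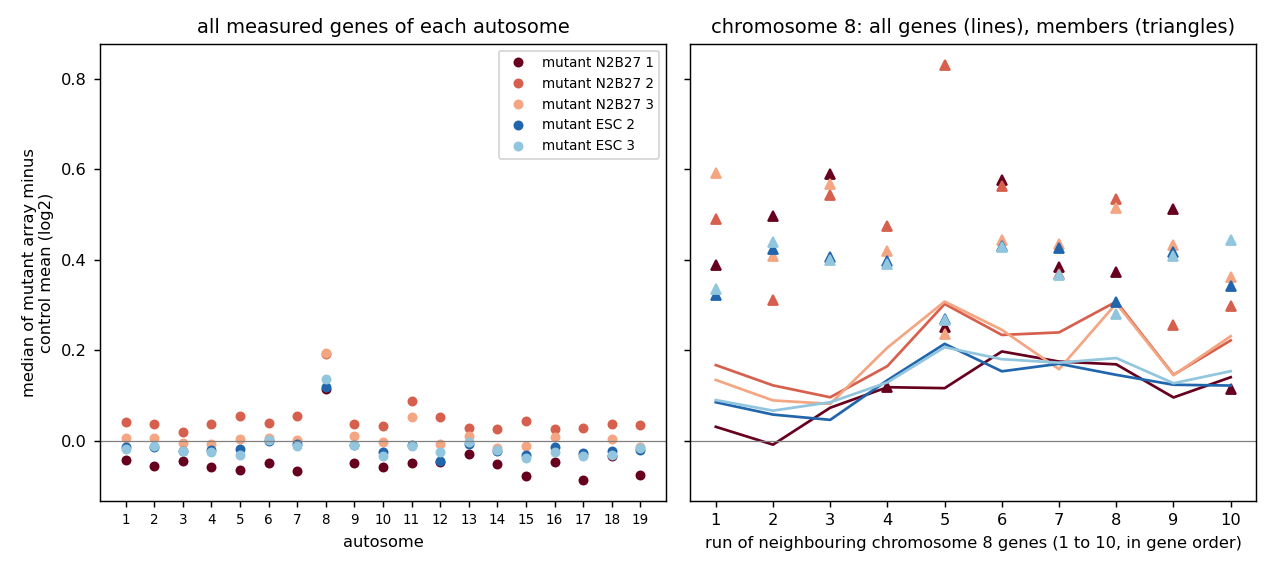
Median log2 difference of each mutant array from the mean of the control arrays of its medium, for the genes of each autosome (left) and for 10 runs of neighbouring genes along chromosome 8 (right), where lines show all genes and triangles the members. Chromosome 8 stands above the other autosomes on all 5 arrays (0.11 to 0.19), and the members' median lies above that of all genes in 48 of 50 pairs of run and array.

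Some neighbouring members had like differences and others did not. Vps35 and Orc6 are next to each other in the order of measured genes, with Dnaja2 4 genes on, and had 0.51, 0.66 and 0.63 in N2B27 and 0.61, 0.51 and 0.43 in ESC medium. Ddx49, Cope and Upf1 are 3 neighbours in a row, with 0.68, 0.38 and 0.27 in N2B27 and 0.48, 0.35 and 0.37 in ESC medium. Gabarapl2 and Adat1 are next to each other and had 0.45 and 0.23 in N2B27 and 0.62 and 0.02 in ESC medium. The 0.62 averages clusters with 0.26 and 0.98. Vdac3, Polb and Ikbkb stand within 4 places and had 0.34, 0.39 and 0.39 in N2B27, but 0.53, 0.05 and -0.01 in ESC medium. Differences between neighbours were not tested.

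The other genes of chromosome 8 had a smaller median difference and a wider spread. Over the 915 that are not members, the median difference was 0.15 in N2B27 and 0.10 in ESC medium, with 73.0% above 0 in both media. Their SD was 0.29 and 0.27, against 0.17 and 0.16 for the members. The members were listed for broad expression with these results known, so this contrast is a description and was not tested.

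The members were not listed by their response to medium, which was tested in each genotype. Results of these arrays were known when the list was drawn up, and the response uses the same arrays as the genotype difference. Members moved in both directions in N2B27, and in the same direction in both genotypes for most. In mutant cells 5 of 40 rose and 9 fell, together 35.0%, against 25.2% of all genes (14.9% rose and 10.3% fell). In control cells 4 rose and 13 fell, together 42.5%, against 26.1% of all genes (12.8% rose and 13.3% fell). Of the partners, 26.8% and 41.5% were called. The members' median response was -0.01 in mutant and -0.15 in control cells, beside 0.01 and 0.02 over the genes of the other autosomes. In mutant cells the members' share did not stay above that of all genes. Without mutant array 2 or 3 in ESC medium, 5 of 40 were called in each case (12.5%), against 13.6% and 17.0% of all genes, and with the replicate block 8 were (20%), against 20.1%. In control cells 11 of 40 (27.5%) were called without control array 1 in ESC medium (20% of all genes) or without control array 1 (20.5%) or 3 (20.1%) in N2B27.

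Cul4a, Ist1 and Ikbkb rose in N2B27 in both genotypes. Cul4a rose by 0.86 (SE 0.12, adjusted p = 0.000584, limma) in mutant cells, to 0.47, 0.46 and 0.39 in N2B27 against -0.54 and -0.32 in ESC medium. In control cells it rose by 0.68 (SE 0.11, adjusted p = 0.00128, limma), to 0.00, 0.03 and 0.21 in N2B27 against -0.84, -0.47 and -0.49 in ESC medium. Neither genotype had overlapping media. Ist1 rose by 0.71 (SE 0.09, adjusted p = 0.000364, limma) in mutant cells, with 0.56, 0.47 and 0.59 in N2B27 against -0.26 and -0.09 in ESC medium. In control cells it rose by 0.56 (SE 0.08, adjusted p = 0.000822, limma), with 0.02, 0.00 and 0.07 in N2B27 against -0.70, -0.42 and -0.47 in ESC medium. Every array in N2B27 lay above every array in ESC medium of the same genotype. Ikbkb rose by 0.61 (SE 0.07, adjusted p = 0.000182, limma) in mutant cells and by 0.21 (SE 0.06, adjusted p = 0.0306, limma) in control cells. Prdx2 (0.36) and Ap1g1 (0.22) rose in mutant cells, and Ctcf (0.24) rose in control cells.

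Of the 14 members that fell in N2B27 in at least 1 genotype, 6 were among the 9 of replication and the cell cycle. The others were 2 of 7 in chromatin, 2 of 5 in RNA and translation, 2 of 3 in protein turnover and 2 of 9 in membrane traffic. No share of all genes stands beside these counts, and differences between roles were not tested. Farsa fell by 0.53 (SE 0.12, adjusted p = 0.00789, limma) in mutant cells, with -0.15, 0.23 and -0.05 in N2B27 against 0.55 and 0.53 in ESC medium. In control cells it fell by 0.67 (SE 0.10, adjusted p = 0.00122, limma), with -0.62, -0.44 and -0.49 in N2B27 against 0.26, 0.20 and 0.00 in ESC medium. Its media did not overlap in either genotype. Gabarapl2 fell by 0.67 (SE 0.16, adjusted p = 0.0126, limma) in mutant cells, with 0.23, -0.07 and 0.26 in N2B27 against 0.87 and 0.75 in ESC medium. In control cells it fell by 0.50 (SE 0.15, adjusted p = 0.0291, limma), with -0.42, -0.29 and -0.24 in N2B27 against 0.54, 0.08 and -0.06 in ESC medium. Its call in mutant cells was lost without mutant array 2 or 3 in ESC medium (adjusted p = 0.104 and 0.0503, limma). Tfdp1 fell by 0.56 (SE 0.18, adjusted p = 0.0421, limma) in control cells, a call lost without control array 1, 2 or 3 in ESC medium or 1 or 3 in N2B27 (adjusted p = 0.0921 to 0.151, limma) and after a second quantile normalization (adjusted p = 0.0614, limma). In mutant cells it differed by -0.19 (SE 0.20, adjusted p = 0.592, limma). Cdt1, Gins4, Psmd7, Smarca5, Cfdp1 and Cog4 also fell in both genotypes, by 0.35 to 0.43 in mutant and 0.26 to 0.46 in control cells. Anapc10 (-0.26) fell in mutant cells, and Ddx49 (-0.54), Orc6 (-0.52), E2f4 (-0.51) and Dnaja2 (-0.47) fell in control cells. Whether a member passed in 1 genotype and not in the other is no sign of a difference between them. No interaction passed without array weights, and with them those of Ap1g1 and Ikbkb did.

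Across the 40 members, the responses in mutant and control cells, which share no array, had a Pearson correlation of 0.85 and a Spearman correlation of 0.82. The sign was the same for 28 members, and 11 were called in both genotypes. No value over all genes or over the partners stands beside these counts and correlations. They are therefore not read as particular to the members.

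**Figure D5:**
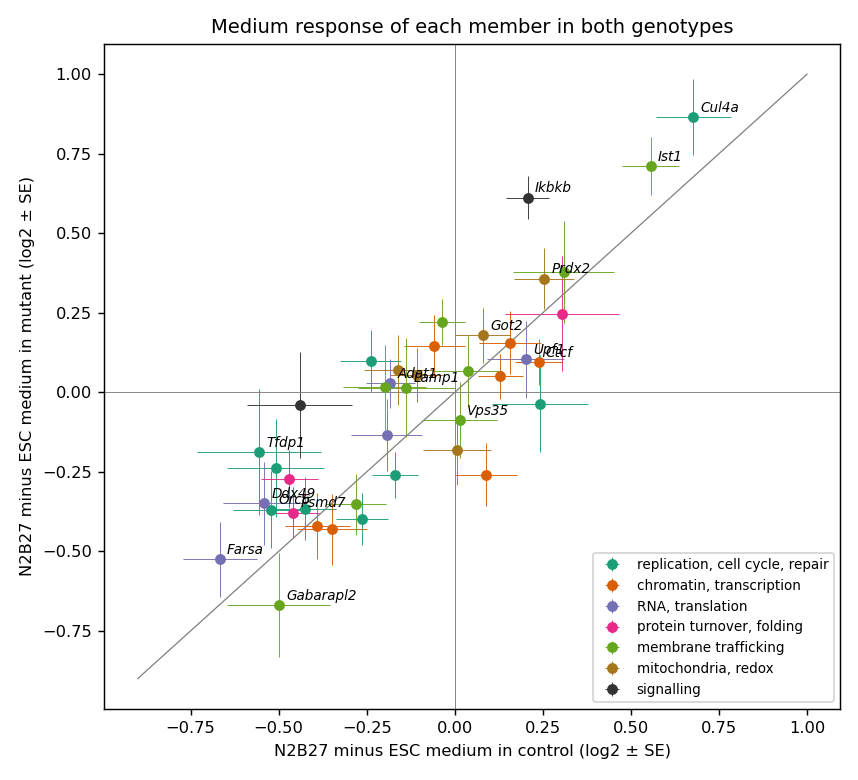
Log2 response to medium, N2B27 minus ESC medium, of each member in mutant cells (vertical) and control cells (horizontal), with SE bars, coloured by role; the diagonal marks equal responses. The points follow the diagonal from Farsa and Gabarapl2 at the lower left to Ist1 and Cul4a at the upper right, with Ikbkb above it (0.61 against 0.21).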

How the data were processed

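Total RNA of 11 samples was hybridised to Affymetrix arrays. Per the submitters' processing notes, the authors made log2 values with RMA in Affymetrix Expression Console 1.2; the log base is the usual one and is not stated, and the deposited values had been centred per transcript cluster in a way that is not stated. Of 28815 clusters, 21780 have 1 gene symbol in the platform annotation, 1605 several and 5430 none. Clusters of a gene were averaged (19935 genes, 998 with several clusters). Chromosome and gene order came from the RefSeq gene table (GRCm38.p6), matched by Entrez identifier (21689 clusters).

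All 4 groups were fitted jointly with limma 3.58.1 in R 4.3.3 (7 residual degrees of freedom, prior 3.02), with two-sided tests, a moderated standard error (SE) and Benjamini-Hochberg adjustment over all genes at 0.05. The fit was tested on simulated data with independent errors on each array, so without pairing. Of 100 genes changed by 0.5, it called 58 for the medium response in control cells, 51 in mutant cells and 34 for the interaction. Of 100 changed by 1, it called 92, 89 and 79. Members, partner and marker lists, and the rule for values array by array (the first gene of each role, the 4 highest and 4 lowest mean genotype differences, the 4 largest called medium responses per genotype) were chosen with earlier results of these data known. Same-numbered arrays could be pairs, so their deviations from the group means were correlated. Mutant with control in N2B27 gave 0.256, 0.430 and 0.158, and N2B27 with ESC medium in control cells gave 0.138, 0.181 and 0.131. These were taken to pair the arrays. Mutant with control in ESC medium gave 0.250, and N2B27 with ESC medium in mutant cells 0.264. Both exceed the control-cell values, but rest on only 2 shared numbers, and pairing was left undecided there. The joint fit has no term for the sample number. SEs, p-values and calls therefore leave pairing out, except under the replicate block. A filter on dim probes cannot be made on centred values.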

Additional observations from a re-analysis of the deposited data

How the results depend on the processing

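The members' median genotype difference kept its sign under every alternative run, with 0.40 to 0.44 in N2B27 and 0.37 to 0.39 in ESC medium under other centrings, a second quantile normalization, genes with 1 cluster, array weights, the compared groups alone and the replicate block. With 1 array left out in turn it was 0.39 to 0.47 in N2B27 and 0.37 to 0.41 in ESC medium. Counts of calls depended more on the setting. In N2B27, 26 members were called higher (4.10% of all genes). The count was 14 to 24 with 1 array left out (1.8% to 4.18% of all genes) and 6 with the compared groups alone (1.61%). In ESC medium, 17 were called higher (3.09% of all genes), and 3 to 12 with 1 control array left out (1.69% to 3.5%). A lone mutant array, where 1 is left out, is assumed to vary like the other groups. The count was 9 after a second quantile normalization (1.64% of all genes), 29 with array weights (6.93%) and 30 with the replicate block (7.8%). The medium response in mutant cells had 14 calls (25.2% of all genes), and 5 to 19 with 1 array left out. The 5 comes from fits with a lone mutant array in ESC medium. With 1 mutant array in N2B27 left out, the count was 12 to 19 (20.2% to 29.9% of all genes). It was 22 with array weights (38.6%), 8 with the compared groups alone (18%) and 8 with the replicate block (20.1%). In control cells the medium response had 17 calls (26.1% of all genes), and 11 to 13 with 1 array left out (20% to 22.6%). The interaction had 0 calls, and 0 with any control array or any mutant array in N2B27 left out. With array weights it had 2, where 1246 of all genes were called higher and 536 lower. Array weights gave mutant arrays 1, 2 and 3 in N2B27 0.36, 0.23 and 2.93, so weighted results in mutant N2B27 rest mostly on array 3. Over all genes, the ESC medium genotype contrast had 615 calls higher and 609 lower, and 326 higher and 165 lower after a second quantile normalization; the count called higher ran over all settings from 174 to 1555 there, from 321 to 1821 in N2B27 (817 as reported), from 1607 to 4385 for the medium response in mutant cells (2971 as reported) and from 42 to 1246 for the interaction (312 as reported). Where the arrays were taken as paired, the replicate block gave 19 genotype calls in N2B27 (3.78% of all genes). It gave 18 medium calls in control cells (29.3%), and both counts are within 1.5 times those above. Elsewhere only 2 numbers are shared, and the cause of the changes was not tested. For the medium responses named by rule, 98 repeats kept the call and 8 lost it, none with a change of sign, the losses being for Gabarapl2 in mutant and Tfdp1 in control cells. The number of arrays and the unknown brightness of each gene limit the precision.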

Other observations

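Some genes of chromosome 8 went against the rest. The genes named here were chosen after their values were seen. In ESC medium 10 of 955 were called lower in mutant cells, where 3.05% of all genes were, and in N2B27 2 were, Rab20 (-0.55) and Trmt9b (-0.67), where 1.64% of all genes were. None was called lower in both media. Among the 10 were Col4a1 and Col4a2, the paired chains of basement membrane collagen, with -0.47 (SE 0.11) and -0.65 (SE 0.10) in ESC medium. In N2B27 they differed by -0.09 and -0.25, and neither was called. Cpe, a peptidase of hormone processing, differed by -0.89 in ESC medium and 0.44 in N2B27, and Efnb2, an ephrin ligand, by -0.80 and 0.21. Slc5a5, the iodide transporter gene, was called in both media with opposite signs, at 0.82 (SE 0.11, adjusted p = 0.00302, limma) in N2B27 and -0.52 (SE 0.12, adjusted p = 0.0327, limma) in ESC medium.

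Several members are read by more than 1 cluster. The clusters of Got2, Hmgb2, Polr2c, Prdx2, Tfdp1 and Vdac3 differed from each other by less than 0.1 in either medium, while those of Gabarapl2 did not in ESC medium.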
